A study of Mus musculus with 9 samples.

Results

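Of the 9798 N-MYC peaks called in MYCN-driven mouse T-cell lymphoma, 1437 (14.7%, 95% Wilson interval 13.98 to 15.4%) overlapped no peak of H3K4me3, the histone mark of promoters, and none of SUZ12 or H3K27me3, the Polycomb features. They are called N-MYC peaks off H3K4me3 here. Members were chosen by overlap of at least 1 bp on the 19 autosomes, X and Y, so the lack of H3K4me3, SUZ12 and H3K27me3 is the choice itself and not a result. For comparison, 7968 N-MYC peaks lay on H3K4me3 without a Polycomb feature, and the other 393 overlapped SUZ12 or H3K27me3. The chromatin was that of lymphoma cells in the thymus of C57BL/6J mice, and it was profiled by ChIPmentation, in which a transposase adds the sequencing adapters while chromatin is still bound to the antibody. There was 1 library for each of 7 antibodies (N-MYC, p300, H3K27ac, H3K4me3, EZH2, SUZ12 and H3K27me3), and 2 input libraries were not used. All 7 immunoprecipitations share this one condition, and no other genotype or treatment is compared. The labels do not give the driver of the MYCN allele, the age of the mice or the animal behind each immunoprecipitation. No antibody had a replicate library, so no test was possible and no p-value is given. The intervals reflect counting error alone, as if each peak were independent, and the read depth behind the lists is unknown.

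N-MYC is a transcription factor of the MYC family that binds DNA as a partner of MAX, with the E-box CACGTG as its preferred motif. MYC proteins are best known at active promoters, and at high levels they are also found at enhancers, the distal elements that raise transcription of genes on the same chromosome. p300 is a histone acetyltransferase recruited to enhancers and promoters, and acetylation of histone H3 at lysine 27 (H3K27ac) is a mark of active elements that it deposits. H3K4me3 is typical of promoters and usually low at enhancers. In thymocytes, enhancers near genes of T-cell receptor signalling and near lineage transcription factors keep those genes active.

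Few of these peaks lay at a promoter, and the promoter sequences at those few were searched for CACGTG. In the RefSeq promoter windows of assembly GRCm38.p6, which run from 250 bases before to 50 bases after a gene's start, 17 of the peaks touched 20 windows of 18 genes. Both strands were covered because CACGTG is its own reverse complement, and no other motif was searched. The motif occurred in 8 of the 20 windows (40.0%, 21.9 to 61.3%), in 13.6% of 6095 windows touched by N-MYC on H3K4me3, in 7.03% of 4367 windows with H3K4me3 but no N-MYC, and in 7.84% of all 21263 windows. Windows of 1 gene can overlap and share a motif, as those of Tcam1 do. By gene, 7 of 18 (38.9%, 20.3 to 61.4%) had the motif, against 14.4% touched by N-MYC on H3K4me3 and 8.91% of all 17492 genes. Within the peak itself it was found for 4 of the 18 genes (22.2%, 9.001 to 45.2%), against 13.4% (12.49 to 14.3%) of 5336 genes touched by N-MYC on H3K4me3. The interval of the smaller set spans the larger set's value for the motif in the peak. The 4 genes were Ppfia4, Igsf9, Tle6 and Tcam1. The 250 bases before their starts are printed 5′ to 3′ on the gene's strand with CACGTG in capitals, beside Stard9, whose window held none. These 5 were chosen after their values were seen.

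Ppfia4: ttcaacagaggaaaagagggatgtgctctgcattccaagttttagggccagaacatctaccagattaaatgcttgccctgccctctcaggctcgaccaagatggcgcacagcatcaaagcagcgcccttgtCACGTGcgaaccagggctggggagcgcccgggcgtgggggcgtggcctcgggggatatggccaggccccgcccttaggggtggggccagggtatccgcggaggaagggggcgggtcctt
Igsf9: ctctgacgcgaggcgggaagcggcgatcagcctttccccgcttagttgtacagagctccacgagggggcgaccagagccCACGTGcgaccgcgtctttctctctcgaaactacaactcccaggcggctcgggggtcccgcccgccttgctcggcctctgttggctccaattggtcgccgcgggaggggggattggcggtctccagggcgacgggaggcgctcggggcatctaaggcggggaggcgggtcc
Tle6: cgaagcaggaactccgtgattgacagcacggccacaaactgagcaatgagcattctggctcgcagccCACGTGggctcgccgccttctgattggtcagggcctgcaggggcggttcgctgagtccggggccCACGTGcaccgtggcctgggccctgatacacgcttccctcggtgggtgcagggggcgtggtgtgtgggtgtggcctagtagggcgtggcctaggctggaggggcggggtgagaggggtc
Tcam1: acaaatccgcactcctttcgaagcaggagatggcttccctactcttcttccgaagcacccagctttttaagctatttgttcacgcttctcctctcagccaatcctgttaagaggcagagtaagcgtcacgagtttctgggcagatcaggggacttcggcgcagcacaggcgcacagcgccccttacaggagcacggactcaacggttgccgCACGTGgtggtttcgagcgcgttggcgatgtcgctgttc
Stard9: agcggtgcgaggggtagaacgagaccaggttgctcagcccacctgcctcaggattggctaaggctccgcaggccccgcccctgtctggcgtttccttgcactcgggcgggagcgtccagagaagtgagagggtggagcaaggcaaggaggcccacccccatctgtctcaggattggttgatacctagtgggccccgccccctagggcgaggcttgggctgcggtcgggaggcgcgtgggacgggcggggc

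The printed stretches are chr1:134344717-134344966 on the minus strand for Ppfia4, chr1:172481963-172482212 on the plus strand for Igsf9 and chr10:81600901-81601150 on the minus strand for Tle6. Those of Tcam1 (the second of its 2 windows) and Stard9 are chr11:106276472-106276721 and chr2:120628871-120629120, both on the plus strand. Tle6, a co-repressor of the Groucho family, carried the motif 2 times, and its N-MYC peak had a fold enrichment of 6.23. That fold enrichment is the authors' value at the summit over local background, and every later one is of the same kind. Tcam1 had an N-MYC value of 7.32 and Igsf9 6.17, and the peaks at Ppfia4 and Stard9 were at 4.25 and 4.30. Of the 17 peaks at promoters, 11 overlapped H3K27ac, 3 overlapped p300 and 6 overlapped neither, Ppfia4 and Stard9 among the last. The sequences of the remaining peaks are not analysed here.

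Most N-MYC peaks off H3K4me3 lay far from genes' starts. The median distance from the N-MYC summit to the nearest protein-coding gene start was 21602 bp (quartiles 8905 and 47307 bp), against 159 bp for N-MYC peaks on H3K4me3. Only 31 of the 1437 summits (2.16%, 1.52 to 3.05%) fell within 1 kb of a start, compared with 82.1% on H3K4me3. Conversely, 1028 (71.5%, 69.1 to 73.8%) lay over 10 kb away and 143 (9.95%) over 100 kb away, where the set on H3K4me3 had 8.18% and 0.891%. The share inside the body of a protein-coding gene was 56.8% (816 peaks), below the 69.7% on H3K4me3, and 174 of these 816 lay in a different gene from the one whose start was nearest. Exons and introns are not analysed here. With non-coding genes included, 8.42% of the summits were within 1 kb of a start. With every list cut to the length of the N-MYC list, the rule gave another set, of 2033 peaks. Of their summits 9.69% were within 1 kb. Because H3K4me3 marks promoters, the choice of members bears on their distance to promoters, and the values are given as a description.

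**Figure D1:**
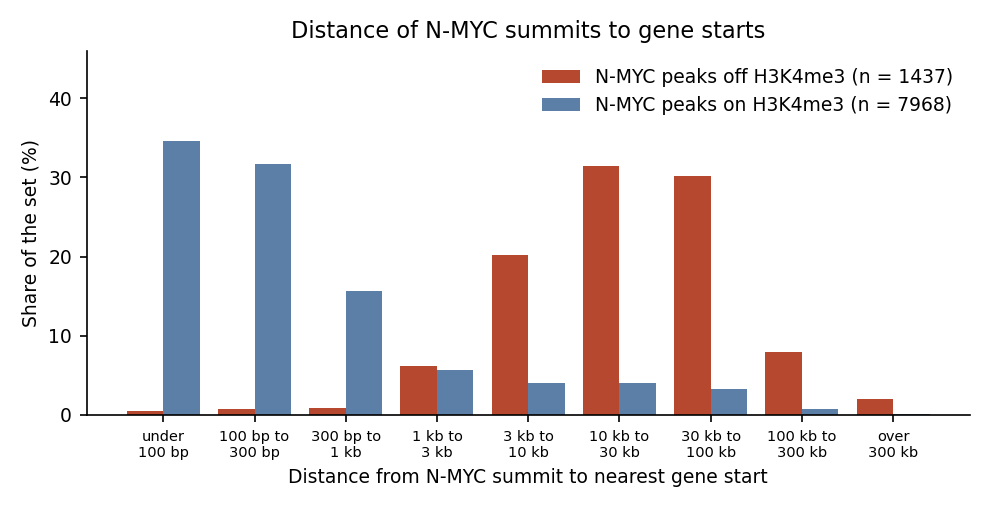
Distance from the N-MYC summit to the nearest protein-coding gene start, in 9 distance classes, as the share of peaks in each set (%). The bars of N-MYC peaks off H3K4me3 are highest at 10 kb to 30 kb (31.4%) and 30 kb to 100 kb (30.2%), and those of N-MYC peaks on H3K4me3 are highest under 100 bp (34.6%).

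The gap to the nearest H3K4me3 peak had a median of 18238 bp, and 113 of the 1437 members lay within 1 kb of one. At the edge of the rule, 40 members had a gap of at most 200 bp, with a median N-MYC fold enrichment of 4.52, and 29 of them overlapped p300, 39 H3K27ac and 1 EZH2. Just on the other side, 265 N-MYC peaks overlapped H3K4me3 by at most 200 bp, with a median of 4.23, and 195 of them overlapped p300, 257 H3K27ac and 53 EZH2. The peaks off H3K4me3 were spread over the autosomes and X. They made up between 10.4% (chromosome 19) and 20.7% (chromosome 14) of the N-MYC peaks of an autosome and 14 of 157 (8.92%) on X.

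With the full lists, acetylation accompanied most of these sites and p300 about as many as it did not. H3K27ac peaks overlapped 1234 of 1437 members (85.9%, 84.0 to 87.6%) and p300 peaks 719 (50.03%, 47.5 to 52.6%). Both were present at 692 members (48.2%), H3K27ac alone at 542 (37.7%), p300 alone at 27 (1.88%) and neither at 176 (12.2%, 10.7 to 14.04%). On H3K4me3 the shares were 99.3% for H3K27ac, 91.8% for p300 and 0.289% for neither, and no interval overlapped that of the peaks off H3K4me3. The H3K27ac list was the longest of the lists intersected here that the rule did not use. When every list, H3K4me3 included, was cut to the length of the N-MYC list, the rule gave another set, of 2033 peaks. In that set H3K27ac was found at 47.2% and p300 at 37.2%. Both were then found at 27.3% and neither at 42.8%. With fold enrichment of at least 4 in every list, p300 was found at 34.6% of the 1154 peaks then in the set.

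Peaks off H3K4me3 were weaker than those on it, so the shares were also compared within bins of N-MYC strength. The bins were 5 ranges of N-MYC fold enrichment with about as many members in each, from 1.70 to 3.90 in the lowest to 5.68 to 13.7 in the highest. The 162 peaks on H3K4me3 above that range, all with p300, were left out. In the lowest bin p300 was found at 46.2% (40.6 to 52.0%) of 292 members and 82.9% (80.3 to 85.2%) of 928 peaks on H3K4me3. In the highest bin the shares were 62.7% (57.0 to 68.1%) of 287 and 96.7% (96.1 to 97.2%) of 3766, with median N-MYC values of 6.67 and 7.48, so strength was only roughly matched there. In each of the 5 bins the interval of the members lay below that of the peaks on H3K4me3, for p300 and for H3K27ac. In the other 4 bins the medians of the 2 sets were nearly equal, for example 3.56 in both sets in the lowest. Within the members, p300 was more frequent in the strongest bin than in the other 4, which ran from 42.3 to 49.8%.

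**Figure D2:**
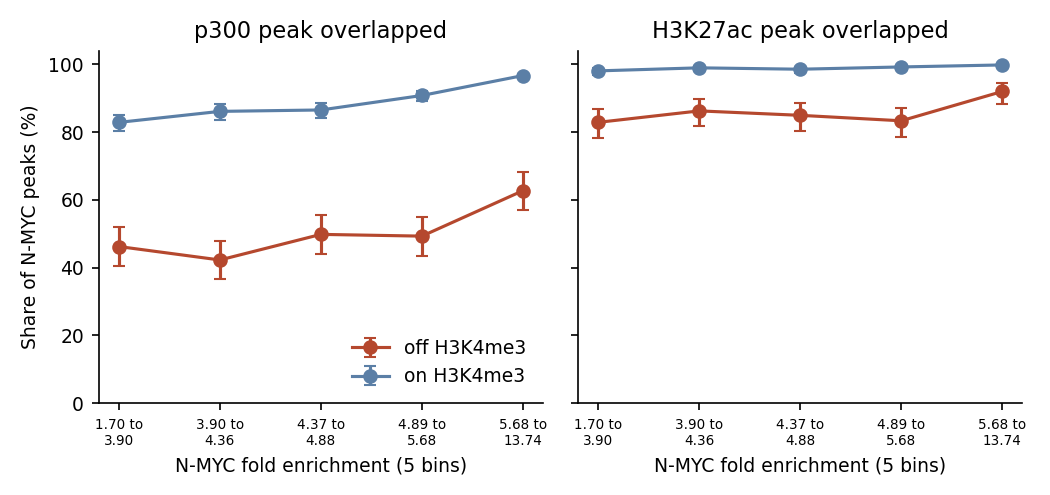
Share of N-MYC peaks that overlapped a p300 peak (left) or an H3K27ac peak (right), by 5 bins of N-MYC fold enrichment, for peaks off and on H3K4me3. Points are shares in % and bars 95% Wilson intervals. Off H3K4me3 the p300 share is 46.2% in the lowest and 62.7% in the highest bin, below the 82.9% and 96.7% on H3K4me3.

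Shares were similar across distances to a gene's start for p300 and lower near starts for H3K27ac. From within 5 kb of a start to over 50 kb away, the p300 share was 47.1% (99 of 210), 53.5% (254 of 475 at 5 to 20 kb), 50.1% (212 of 423 at 20 to 50 kb) and 46.8% (154 of 329). The corresponding H3K27ac shares were 79.0% (73.05 to 84.01%), 88.4% (85.2 to 91.0%), 87.2% and 84.8%. The p300 intervals of all 4 classes overlapped, and the H3K27ac intervals of the nearest class and the 5 to 20 kb class did not. The 113 members within 1 kb of an H3K4me3 peak had p300 at 69.9% (60.9 to 77.6%) and H3K27ac at 94.7%. The 1324 farther members had 48.3% (45.7 to 51.0%) and 85.1%.

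Where p300 and H3K27ac were both called, acetylation was stronger and wider. Members with both had a median H3K27ac fold enrichment of 11.4 and a median H3K27ac width of 3093 bp. Members with H3K27ac but no p300 had 7.11 and 1587 bp. The N-MYC peak itself differed less between these classes, with median fold enrichments of 4.69 and 4.49. Over the 692 members with both, the Spearman correlation between the fold enrichments of p300 and H3K27ac was 0.345. It was 0.250 between N-MYC and p300 (719 members) and 0.0988 between N-MYC and H3K27ac (1234 members). On H3K4me3 the last 2 were 0.342 and 0.278. These are descriptions across peaks of single libraries, which share local background.

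The p300 summit sat close to the N-MYC summit. Among members with p300 the median separation was 130 bp, and 290 of 719 (40.3%, 36.8 to 44.0%) had the p300 summit within 100 bp. On H3K4me3 the median was 160 bp and the share within 100 bp was 34.7% (33.6 to 35.8%). H3K27ac summits lay farther off, at a median of 318 bp off H3K4me3 and 315 bp on it. The p300 peaks were narrower off H3K4me3 (median 540 bp, against 1158 bp), which bounds how far a summit can lie. The part of width in the closer spacing was not tested.

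**Figure D3:**
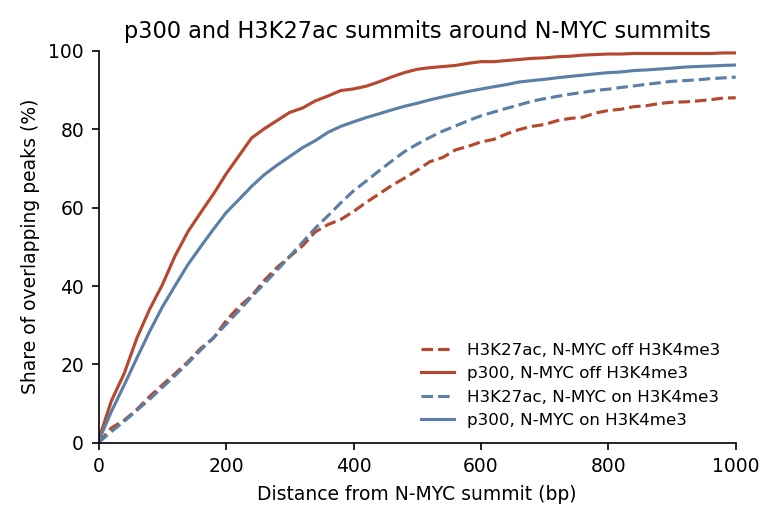
Share of overlapping peaks (%) whose p300 (solid) or H3K27ac (dashed) summit lies within a given distance (bp) of the N-MYC summit, for N-MYC peaks off and on H3K4me3. Within 100 bp the p300 curves are at 40.3% off and 34.7% on H3K4me3, and the H3K27ac curves are lower.

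Seen from p300, N-MYC was most frequent at the strongest distal sites. Of 2891 p300 peaks that themselves overlapped no H3K4me3, SUZ12 or H3K27me3, 710 (24.6%, 23.0 to 26.2%) overlapped N-MYC. The share was 17.3% (13.4 to 22.1%) in the lowest decile of p300 fold enrichment, 32.9% in the ninth decile and 51.4% (45.6 to 57.1%) in the highest. With lists cut to equal length the share over all such peaks was 40.8%. H3K27ac overlapped 96.2% of the distal p300 peaks with N-MYC and 93.2% of the 2181 without. p300 peaks with N-MYC were stronger and wider, with a median fold enrichment of 4.13 against 3.78 and a median width of 505 bp against 312 bp.

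**Figure D4:**
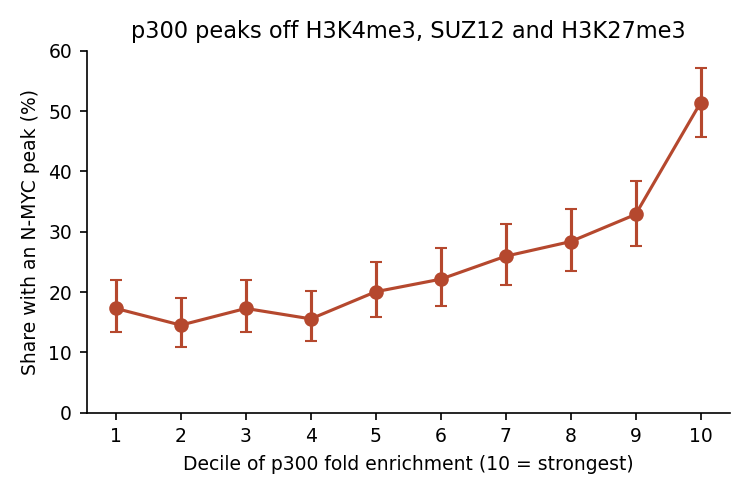
Share of distal p300 peaks that overlapped an N-MYC peak (%), by decile of p300 fold enrichment, with 95% Wilson intervals; each decile holds 289 or 290 peaks. The share is 17.3% in decile 1 and 51.4% in decile 10.

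N-MYC covered a small part of distal acetylation. Of 69210 H3K27ac peaks off the same 3 lists, 1084 (1.57%, 1.48 to 1.66%) overlapped N-MYC, and the share was 11.3% in the highest decile of H3K27ac fold enrichment. At a given level of acetylation, peaks with N-MYC more often had p300. Between 5 and 7.5 in H3K27ac fold enrichment, p300 was found at 37.2% (31.8 to 43.0%) of 282 peaks with N-MYC and at 3.12% of 9287 without. Between 10 and 15 it was 74.4% (68.9 to 79.2%) of 277 against 38.3% of 937. At 15 and above it was 91.1% (84.7 to 94.9%) of 123 against 81.8% (75.03 to 87.0%) of 159, where the intervals overlapped. Median widths of the acetylated peaks with and without N-MYC were 518 and 315 bp below 5 and 1239.5 and 879 bp at 5 to 7.5. They were 2104 and 2006 bp at 7.5 to 10 and 2912 and 2850 bp at 10 to 15. At 15 and above they were 3951 and 4403 bp. Peaks with N-MYC were thus wider in every bin below 15. The part of width in the p300 shares was not tested.

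The 12 strongest peaks off H3K4me3 were all acetylated, and 11 of them overlapped p300. The first was at chr11:98783075-98783814 (mm10), outside any protein-coding gene and 8064 bp from the start of Nr1d1, which encodes the circadian repressor REV-ERB alpha. Its N-MYC fold enrichment was 13.7, its p300 value 4.53 and its H3K27ac value 8.45, and 163 N-MYC peaks of the whole list were higher. The second, chr13:47056017-47056550, lay inside Kdm1b, a histone H3K4 demethylase, with an N-MYC value of 12.98 and H3K27ac at 8.87, and was the one without p300. The third, chr11:88550706-88551532, lay inside Msi2, an RNA-binding protein of blood stem cells, 167058 bp from its start, with N-MYC at 12.02 and p300 at 3.44. These 3 combined the highest N-MYC values with H3K27ac values below 9.25, the median over members with H3K27ac. The median p300 value over members with p300 was 4.23, which lay below the value at Nr1d1 and above that at Msi2.

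Others of the 12 had high values of all 3 features. The peak in Stx8, a syntaxin of endosomal membranes, whose nearest gene was Ntn1 (netrin 1, a guidance cue), spanned chr11:68198942-68200154 with N-MYC at 11.2, p300 at 7.58 and H3K27ac at 33.0. The peak in Plcxd2 (chr16:46006034-46006702) had 11.6, 5.89 and 19.4, and was the one of the 12 within 1 kb of an H3K4me3 peak. Its H3K27ac summit lay 3654 bp from the N-MYC summit, in a peak of 7707 bp. The peak in Arhgap10, a GTPase-activating protein gene (chr8:77451237-77452107), had 10.7, 6.31 and 17.4. A peak 15084 bp from the start of Pik3cd, the leukocyte PI3-kinase delta catalytic subunit, lay inside Clstn1 (chr4:149647994-149648849) with N-MYC at 10.7, p300 at 4.44 and H3K27ac at 11.5. The nearest genes of the other 5 were Sv2b, Muc13, Cnbd2, Rhbdl3 and Chrna9, with N-MYC between 10.3 and 11.4. None of the 12 overlapped EZH2 and 9 lay inside a protein-coding gene. Nearness of a start does not show which gene a site acts on.

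The members with the highest p300 values were not among the 12 strongest in N-MYC. p300 reached 16.7 at chr8:84198581-84198818, between genes, 9863 bp from the hairpin of Mir23a and 208 bp from an H3K4me3 peak, where N-MYC was 4.84. At chr15:73067466-73067819, with Trappc9 nearest, p300 was 12.1 and N-MYC 5.42. A second Nr1d1 peak, chr11:98773645-98774291, inside the gene and 103 bp from H3K4me3, had p300 at 11.2 and N-MYC at 9.18. The fourth lay inside Cdk6, the cyclin-dependent kinase 6 gene, although the start of Fam133b was nearer. At that site, chr5:3497364-3498180, p300 was 9.62, N-MYC 6.29 and H3K27ac 25.3. The fifth was inside Itpkb (p300 8.997), whose inositol trisphosphate kinase is needed for thymocyte selection.

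Members rarely lay together. Joined at gaps of up to 10 kb they formed 1331 groups, of which 1241 held a single member, 90 held 2 or more (196 members) and 13 held 3 or more. The densest was in Gm38664, where 5 members with N-MYC between 3.93 and 5.14 lay within 6094 bp (chr1:181226752-181232845), under 1 H3K27ac peak of 10238 bp, and all 5 overlapped p300. Of the 1176 H3K27ac peaks that held a member, 48 held 2 or more. Near Zfp36l2, whose RNA-binding protein promotes mRNA decay in lymphocytes, 3 members at 5.39 to 8.40 lay in 6132 bp under an H3K27ac peak of 21030 bp. The tightest of the 12 groups with most members was inside Csk, whose kinase restrains Lck, where 3 members at 4.20 to 4.36 lay within 985 bp and all overlapped p300. Other groups of 3 were nearest to Cyld, Il6st, Fli1, Tnfsf10 and Sh3bgrl3, and to Chrna9 together with the haematopoietic GTPase gene Rhoh. All 12 of these groups had H3K27ac at 2 or more of their members.

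Counting by nearest gene, 1196 protein-coding genes (5.46% of 21887) were nearest to at least 1 member, 181 to at least 2 and 41 to at least 3. Tex14, a testis gene of intercellular bridges, had 7 members inside it, with N-MYC from 3.43 to 8.13, and 6 of them overlapped p300 and 6 H3K27ac. Zfp36l2 and Gm38664 had 5 each. Arhgap10, Tmppe (its 4 members inside Glb1), Ubash3b, Gm36448 and Itpkb had 4 each. Ubash3b encodes a phosphatase that dampens T-cell receptor signalling. Starts of genes nearest to a member carried H3K4me3 in 73.4% of cases, against 51.0% of all genes. Among genes with H3K4me3 at the start, N-MYC was also at the start for 68.5% (65.3 to 71.4%) of the nearest genes and 64.1% (63.2 to 64.9%) of all, and H3K27me3 for 15.4% and 15.3%. N-MYC at a start counts any N-MYC peak, members included, and 31 members lay within 1 kb of a start. The choice of genes thus bears on the 68.5%.

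T-cell genes were frequent among the nearest genes. Of 51 genes on lists of T-cell transcription factors and of T-cell receptor and thymocyte surface genes, 21 (41.2%) were nearest to a member, where the background is 5.46%. By the alternative of a start within 50 kb of a member, 20 of 51 qualified, against 9.42% of all genes. These were 16 of the 26 receptor and surface genes and 4 of the 25 transcription factors, so the count of the transcription factors fell from the 9 that were nearest. The 29 members concerned were 2.02% of all members. The 51 genes are nearest over 0.409% of the genome by position, and took 0.540% of N-MYC peaks on H3K4me3 and 2.43% (53 of 2181) of distal p300 peaks without N-MYC. The last share was as high as that among members. By list, transcription factors took 0.905% of members and 1.60% of distal p300 peaks without N-MYC, and receptor and surface genes took 1.11% and 0.825%. Of the 29 members, 28 overlapped H3K27ac and 25 p300, with N-MYC between 3.04 and 8.65 (median 5.17).

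Of the transcription factors, 9 of 25 were nearest to a member and 4 had a start within 50 kb of one. The highest N-MYC value was 8.65 at chr16:93152674-93153443, 327004 bp from the start of Runx1, a regulator of thymocyte development, with p300 at 5.77 and H3K27ac at 5.44. A second Runx1 member inside the gene had N-MYC at 4.53 and H3K27ac at 14.5. Lef1, an effector of WNT signalling in thymocytes, had a pair of members inside the gene (6.94 and 3.04), and its relative Tcf7 had 1 at 6.40 (chr11:52313989-52314766), 31335 bp from the start, with p300 at 6.14 and H3K27ac at 10.97. Gata3, which directs early T-cell commitment, had 2 members (6.03 and 6.13) at least 282977 bp from its start. Ets1 had 2 inside the gene, at 6.37 and 5.05, with H3K27ac at 6.61 and 26.1. The H3K27ac summit lay 27 bp from the N-MYC summit for the first. For the second it lay 8535 bp away, in a peak of 13901 bp. Runx3 (4.64), Ikzf1 (4.67), Tcf12 (6.48) and Bach2 (4.94) had 1 each, and those of Tcf12 and Bach2 overlapped H3K27ac but not p300.

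Of the receptor and surface genes, 12 of 26 were nearest to a member. Lck, the kinase that starts T-cell receptor signalling, had a member at chr4:129574991-129575555, 1645 bp from its start and 35 bp from an H3K4me3 peak, with N-MYC at 7.84, p300 at 7.21 and H3K27ac at 21.2. Cd3d, a chain of the receptor complex, had a member 57 bp from H3K4me3 with N-MYC at 4.05, p300 at 8.28 and H3K27ac at 25.8. The H3K27ac values of Lck and Cd3d came from peaks of 7393 and 10595 bp. Their H3K27ac summits lay 2183 and 3765 bp from the N-MYC summits. Ccr7, a receptor for lymph-node homing, had 3 members with N-MYC from 3.97 to 5.49, all with p300 and H3K27ac. Thy1 (7.08), Cd28 (5.95), Cd27 (5.17), Ccr9 (4.16), Lat (3.61), Cd5 (4.48) and Ptprc (6.69 and 3.27) followed. The member inside Dntt (4.76), which encodes terminal transferase, was the one of the 29 with neither p300 nor H3K27ac.

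N-MYC was within 1 kb of the start at 28 of the 51 T-cell genes (54.9%), against 32.9% of all genes. H3K4me3 was at the start of 41 of the 51, against 51.0% of all genes, and all 28 were among these 41. Of all genes with H3K4me3 at the start, 64.1% had N-MYC there, so 28 of 41 is near the share of any such gene. Of the 21 nearest to a member, 13 also had N-MYC at the start and 8 did not (Runx1, Ets1, Bach2, Cd3d, Dntt, Ptprc, Cd27 and Ccr9). In 4 of these 8 (Ets1, Bach2, Dntt and Ccr9) no H3K4me3 peak was called at the start. Ets1 had no start in the promoter table, so its 2 gene ends stood in for it. One of its members, inside the gene, lay 344 bp from an H3K4me3 peak, so its start may be missed here. Ccr7, among the 13, was also placed by its gene ends, and a member lay 118 bp from an end. All 20 genes of a list of classical MYC targets, of ribosome biogenesis, metabolism and growth such as Ncl, Npm1, Odc1 and Cdk4, had N-MYC at the start. None of the 20 was nearest to a member, which at a background of 5.46% is a count near that of all genes. The 6 genes of the profiled factors and their partners, Ezh2 and Ep300 among them, had N-MYC at the start in 6 of 6 and were nearest to 0 members, again near the background for so few genes.

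Of 19 leukaemia oncogenes and cell cycle genes, 3 were nearest to a member. Among them were Mcl1 (4.21), an anti-apoptotic BCL2 relative, and Ccnd3 (5.15), cyclin D3, and both of their members overlapped p300 and H3K27ac. Of 10 genes of the MYC network, Max (3.90), the N-MYC partner, and Mxd4 (2.80), a competitor for MAX, were each nearest to 1 member, with H3K27ac and without p300. For Max it lay 123250 bp from the start, outside any protein-coding gene. For Mxd4 it lay 22635 bp from the start, inside Zfyve28. Of 12 B-cell and myeloid markers, 0 were nearest to a member, and of 8 epithelial and stromal markers only Krt8 was (6.38, inside Krt78), counts too small to set apart from the background of 5.46%. As a check of the labelled cell type, H3K4me3 was at the start of 41 of the 51 T-cell genes, 3 of 12 B-cell and myeloid markers (Cd79a, Cd79b and Cebpa) and 1 of 8 epithelial and stromal markers (Epcam). H3K27ac was at 40, 6 and 3 of them. The T-cell starts without H3K4me3 included Cd8a, Cd8b1, Ptcra, Rag1 and Rag2.

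**Figure D5:**
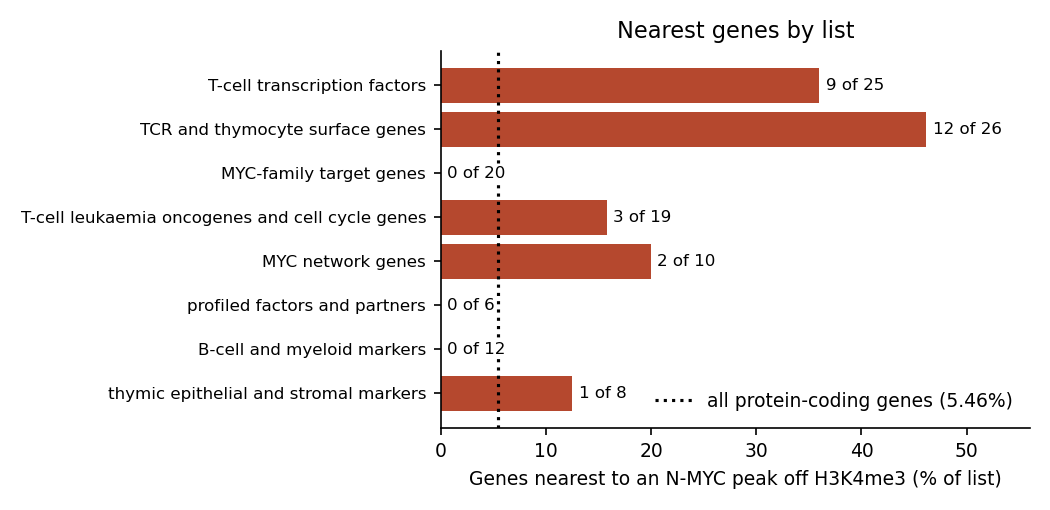
Share of each gene list that was nearest to at least 1 N-MYC peak off H3K4me3 (%), with the number of genes beside each bar; the dotted line is the share over all protein-coding genes (5.46%). The T-cell lists stand at 9 of 25 and 12 of 26, and the MYC targets at 0 of 20.

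The T-cell receptor alpha and delta locus on chromosome 14, whose gene segments are not counted as protein-coding genes, held or bordered 6 members. No member lay within 10 kb of the beta locus on chromosome 6 or the gamma locus on chromosome 13. The strongest of the 6, chr14:54227102-54227957, began 2904 bp beyond the end of Trac, the constant region, on the side of Dad1. The enhancer of the alpha gene is known to lie in that interval. N-MYC was 7.86 there, p300 5.59 and H3K27ac 20.3 in a peak of 19523 bp, and its EZH2 value of 6.96 was the highest among the 29 members with EZH2. A second member 9129 bp beyond Trac had N-MYC at 4.01 and p300 at 3.78. The other 4 lay among variable segments, with N-MYC from 4.02 to 5.79, H3K27ac at all 4 and p300 at 2, although the nearest protein-coding start, Gm36448, was 498192 to 833462 bp away. This locus was chosen after its values were seen.

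The 176 members with neither p300 nor H3K27ac had narrow N-MYC peaks, with a median of 283.5 bp against 386.5 bp where both were present, and a median fold enrichment of 4.49 against 4.69. Their gap to H3K4me3 was wider, with a median of 33738.5 bp against 14632 bp, and 87 lay inside a protein-coding gene. The strongest of them were chr14:27596285-27596792, with Erc2 nearest (8.48), chr6:82702685-82703146, with Pole4 nearest (8.44), and chr15:96543458-96543885, with Slc38a1 nearest (8.11). All 3 were between genes and at least 23009 bp from an H3K4me3 peak. A missing peak says only that none passed the authors' threshold there.

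EZH2, a Polycomb subunit that the rule did not use, was called at 29 members (2.02%, 1.41 to 2.88%). With lists cut to equal length it was called at 1.28% of the 2033 peaks then in the set. On H3K4me3 the share was 69.5% with the full lists. SUZ12 and H3K27me3, features of the same complex, were used to choose the members, which bears on this share. Of the 29, 14 overlapped p300 and 18 H3K27ac. Its fold enrichment ran from 1.88 to 6.96 with a median of 4.42, and its summit lay a median of 98 bp from the N-MYC summit. One of the 29 was the Runx3 member, with an EZH2 value of 4.02.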

How the data were processed

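The authors deposited 1 peak list for each of 7 immunoprecipitations; mm10/GRCm38 and the tools FastQC, Bowtie2, SAMtools, MACS2 and deepTools are named in the submitters' processing notes, without versions or settings. Use of the inputs as controls and pooling before peak calling are not given in the sources used here. Each deposited peak has a fold enrichment (a linear ratio), its p-value and q-value as −log10, a score that repeats the q-value, and a summit; the smallest −log10 q was 2.00 to 2.08 over the lists. The columns were identified from their layout and values, as the files have no header. Peaks on 21 chromosomes were intersected at 1 bp or more with numpy 2.4.6 and pandas 2.3.3 in Python 3.11.15, and shares have 95% Wilson intervals (statsmodels 0.14.6). The strongest overlapping peak represented each other list. Its summit could lie away from the N-MYC summit, for H3K27ac by up to 22147 bp among members. Coordinates are 1-based.

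Genes are RefSeq protein-coding genes of GRCm38.p6. Starts came from the promoter table for 17492 genes, and both gene ends were used for the other 4395; 339 members had such a gene nearest. All 126 list genes matched by symbol. H3K4me3 summits lay within 1 kb of a start in 50.0% of cases, and in 3.34 to 3.62% after shifting them by 5 kb or 100 kb. To check the overlap code, intervals were constructed to overlap 3000 of the 9798 N-MYC peaks. The code found all 3000, which tests the code and not the calling of peaks.

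The members and gene lists were chosen with earlier results of these data known. Named were the 12 members highest in N-MYC, the 8 genes with most members, the 6 members highest in p300, the 3 highest in N-MYC with neither feature, and list genes nearest to a member; a few of these are not reported here. Promoter sequences, groups of 3 or more members, the T-cell receptor loci and the cell-type check at starts were added after seeing the data.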

Additional observations from a re-analysis of the deposited data

How the results depend on the processing

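Of 58 alternative values of 9 shares, 24 stayed within the interval of the reported share and 34 did not. By construction the stricter settings use fewer peaks; beyond that the cause was not tested. With lists cut to equal length, the share of N-MYC peaks in the set was 20.7%, and within the set p300 was 37.2%, H3K27ac 47.2%, both 27.3%, neither 42.8%, EZH2 1.28%, a start within 1 kb 9.69% and over 10 kb 63.9%, while N-MYC was at 40.8% of distal p300 peaks. With fold enrichment of at least 4, the set was 13.9%, p300 34.6%, H3K27ac 82.6%, both 33.2%, neither 16.0% and N-MYC at distal p300 29.8%. With −log10 q of at least 5, p300 was 42.9%, both 41.2%, EZH2 1.38% and N-MYC at distal p300 26.7%. Where sharing required 50% of the shorter peak, the set was 16.2%, H3K27ac 80.5%, both 44.1%, neither 16.1%, N-MYC at distal p300 22.1% and a start within 1 kb 3.59%. With 1 kb kept from the excluded lists, the set was 13.1%, N-MYC at distal p300 26.8%, a start within 1 kb 1.41% and over 10 kb 74.98%. Merging peaks within 1 kb gave 30.3% for N-MYC at distal p300. With all annotated genes, 8.42% were within 1 kb and 51.4% over 10 kb, and with either gene end 4.18% and 63.7%. No paired analysis was possible because each antibody had 1 library and no result comes from a test. The share of all members with CACGTG, and its alternatives, were not run, since no genome sequence was used here. The number of peaks in each list limits what can be called missing, and the depth that set it is unknown.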
